A study of Cicer arietinum with 11 samples.

Results

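The 100 chickpea (Cicer arietinum) transcripts described here had the most even levels over 11 mRNA libraries among transcripts of moderate abundance. They were chosen by their RPKM, a read count divided by transcript length and by the total of reads mapped in that library. A transcript qualified when its lowest RPKM over the 11 libraries was at least 20 and under 200, which 2992 of 34760 transcripts met. These 2992 are called the level window below. They were ranked by the highest RPKM divided by the lowest, and the 100 with the smallest ratio were taken, 3.34% of the level window and 0.288% of all transcripts. All libraries came from the genotype ICC4958, with no transgene or treatment named. The 3 vegetative libraries were germinating seedling, young leaves of mature plants and the shoot apical meristem, taken from plants 20 days old. The 4 flower bud and 4 flower libraries, numbered 1 to 4 in the labels, came from mature plants, and both classes together are called reproductive. Seedlings were raised in a culture room and mature plants in the field, and neither the site nor the age of the plants can be told apart from tissue. Each tissue or stage was 1 library, so every SD below is a spread between tissues or stages.

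Transcripts with an even level are used as references: the amount of another transcript is measured against them when RNA input or library size differs. Many of them encode parts of machinery that every cell runs, such as protein synthesis, protein breakdown and membrane traffic. An even RPKM means an even share of the library's reads per length and not an even number of molecules per cell, because RPKM carries no measure of total RNA. In whole tissues, fewer cells of a type and less RNA per cell cannot be told apart. The files give transcript IDs with no gene names, and a reference table of 29938 chickpea genes held 0 of the 34760 IDs. What the 100 encode is therefore not stated, tissue markers could not be checked against the labels, and no sequence is shown. Because RPKM of all 11 libraries chose the members, their levels are given as a description and no test was made on them.

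The ratio of highest to lowest RPKM ran from 1.23 to 1.55 over the 100 members, with a median of 1.48. Among them, 21 had a ratio under 1.4, 38 one from 1.4 to under 1.5, and 41 one of at least 1.5. The median over the level window was 2.79 and its largest ratio was 251. A ratio under 2 was found for 571 window transcripts, or 19.1%, so the 100 are the even end of a continuous range with no gap behind it. The last transcripts inside the limit were Ca_TC18363 at 1.5545 and Ca_TC10111 at 1.5547. The first outside it were Ca_TC09754 at 1.5569 and Ca_TC18228 at 1.5577. Differences of this size at the limit are far smaller than the spread of any single transcript.

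**Figure D1:**
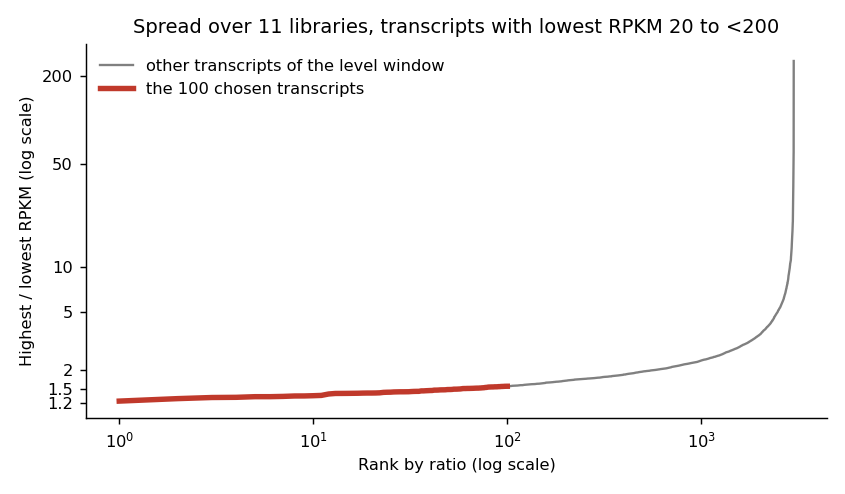
Highest RPKM divided by lowest RPKM over the 11 libraries (log scale) for the 2992 transcripts of the level window, ordered by that ratio (rank on a log scale). The 100 chosen transcripts, in red, run from 1.23 to 1.55 and pass into the rest of the curve without a step.

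Ca_TC10023 had the smallest ratio of all members, 1.23, and a mean of 51.1 ± 3.83 RPKM (SD, n = 11). Its RPKM was 55.8 in the germinating seedling, 47.4 in young leaves and 55.7 in the shoot apical meristem. In flower buds 1 to 4 it was 49.0, 49.9, 48.3 and 45.3, and in flowers 1 to 4 it was 49.5, 55.3, 49.9 and 55.7. The lowest value was in flower bud 4 and the highest in the seedling, the flower values spanned nearly the same range as the vegetative ones, and all 3 classes overlapped.

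Ca_TC17171 followed with a ratio of 1.28 and a mean of 28.4 ± 2.42 RPKM (SD, n = 11). Vegetative values were 28.9 in the seedling, 25.4 in young leaves and 28.5 in the meristem. Flower buds 1 to 4 had 27.0, 25.5, 25.4 and 30.8 RPKM, and flowers 1 to 4 had 30.8, 28.4, 29.3 and 32.6. The level was highest in flower 4, and the first 3 flower buds lay below every flower while flower bud 4 did not. This transcript was 810 bases long by the recovered length and was counted with 300 to 742 reads per library.

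Ca_TC17948 had a ratio of 1.32. Its RPKM was 29.6, 29.4 and 31.7 in seedling, young leaves and meristem, 31.4, 36.9, 34.7 and 27.9 in flower buds 1 to 4, and 31.8, 32.7, 33.9 and 35.4 in flowers 1 to 4. Every flower was above every vegetative library, by 0.14 on the log2 scale on average, and the flower buds lay on both sides of them. Ca_TC02988, with the same ratio to 2 decimals, had 30.5, 31.0 and 35.6 RPKM in the vegetative libraries, 37.2, 34.6, 33.3 and 34.2 in the flower buds and 30.2, 32.6, 29.8 and 28.1 in the flowers. Here the 4 flower buds were all above the 4 flowers, with class means of 34.8 and 30.2 RPKM, and the meristem lay within the range of the buds. Even transcripts of this rank thus still differed in which tissue was high.

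The other 6 of the first 10 had ratios of 1.304 to 1.341 and were Ca_TC09562, Ca_TC17210, Ca_TC15669, Ca_TC09848, Ca_TC15737 and Ca_TC10168. Ca_TC15737 showed an ordered pattern inside its narrow range. It had 39.4, 37.7 and 38.6 RPKM in seedling, young leaves and meristem, 36.4, 38.1, 34.7 and 32.8 in flower buds 1 to 4, and 29.5, 31.2, 30.2 and 31.9 in flowers 1 to 4. All 4 flowers lay below all other libraries, with a log2 difference of -0.33 from the vegetative mean. Ca_TC10168 had its highest value, 44.3 RPKM, in young leaves, next to 43.0 in flower 3, and its lowest, 33.0, in flower 1. Ca_TC15669 was highest in flowers 2 and 4, at 62.5 and 62.8 RPKM, and lowest in flower 3, at 47.3, so its range was spanned by neighbouring flower stages.

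**Figure D2:**
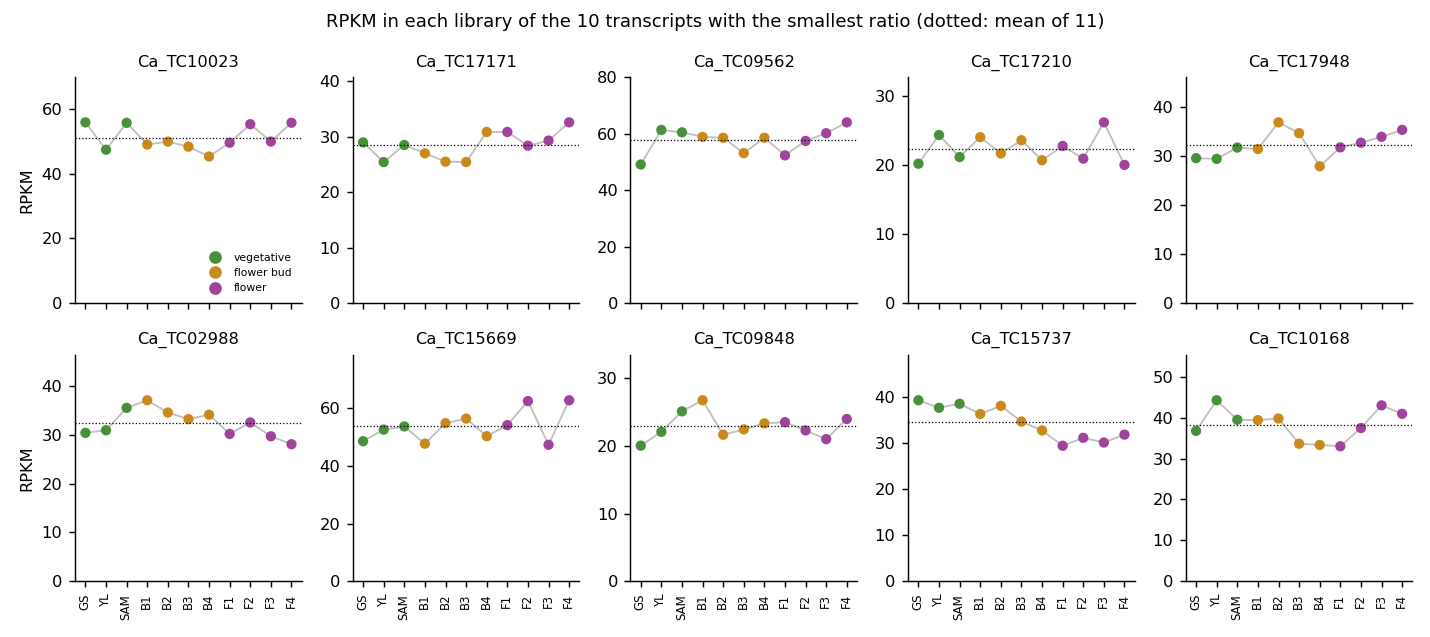
RPKM in each library (y axes start at 0) for the 10 transcripts with the smallest ratio; GS is germinating seedling, YL young leaves, SAM shoot apical meristem, B1 to B4 flower buds and F1 to F4 flowers, and the dotted line is the mean of the 11. The libraries that are high differ from panel to panel: Ca_TC10168 peaks at 44.3 in young leaves and Ca_TC15669 at 62.8 in flower 4.

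Most members were near the lower edge of the level window. Mean RPKM ran from 22.3 in Ca_TC17210 to 198 in Ca_TC05368 with a median of 38.7, below the 67.8 of the level window. Of the 100, 72 had a mean under 50 RPKM, 20 one of 50 to under 100, and 8 one of at least 100. A small ratio also keeps the mean close to the lowest value, so the rule favours low means in a window set on the lowest value. Across the window transcripts the Spearman correlation of ratio with mean log2 RPKM was 0.42, and across the members it was -0.03. Genes are not independent replicates in these correlations.

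Members were long compared with the level window, a property the rule did not use directly. Recovered lengths ran from 626 bases in Ca_TC04395 to 4563 in Ca_TC03027, with a median of 1832 bases against 1348 in the level window. A length of at least 1000 bases was found for 91 of the 100 and for 71.3% of the level window. Across the window transcripts the ratio and the length had a Spearman correlation of -0.14. Longer transcripts collect more reads at the same RPKM and have less counting error. Members also had lower RPKM, and their lowest library held a median of 1173 reads, against 1214 in the level window. The part of length in the choice was not tested.

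Counting error was small for all members. Their lowest library held 300 to 9584 reads, with a median of 1173. Read counting alone gives a coefficient of variation (CV, the SD as a percent of the mean) of 0.807% to 4.23% over the 11 libraries. Its median was 2.30% for members and 2.02% for the level window. The observed CV was 7.51% to 17.0%, with a median of 12.4%, and 31.1% in the level window. The observed variance was at least 4.24 times the counting variance in every member, this lowest value being that of Ca_TC17171, and its median was 30.1 times. In 7 members it was under 10 times. The highest value, 240 times, belonged to Ca_TC05368, the most abundant member, whose counts of 9584 to 24175 reads made even modest differences far larger than counting error. That transcript had 218, 183 and 251 RPKM in seedling, young leaves and meristem, 201, 216, 205 and 177 in flower buds 1 to 4, and 172, 205, 169 and 179 in flowers 1 to 4. Even the most stable transcripts of the level window therefore varied between libraries by more than read counting gives. With 1 library per tissue, variation between plants, between library preparations and between tissues cannot be told apart here.

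**Figure D3:**
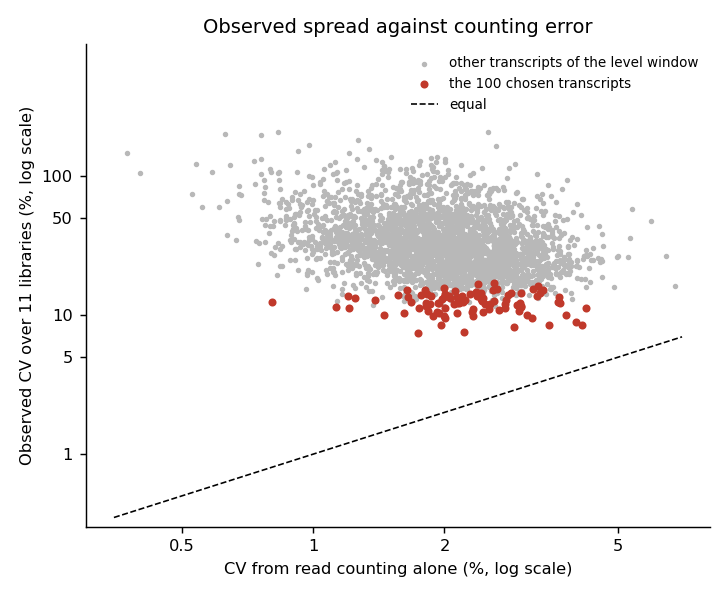
Observed CV of RPKM over the 11 libraries against the CV that read counting alone gives (both in percent, log scales) for the 100 chosen transcripts (red) and the other window transcripts (grey). All members lie above the dashed line of equality, with medians of 12.4% observed and 2.30% from counting.

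As a set, the members had similar summed RPKM and shares of reads in the 3 classes. Their RPKM added up to 4887 ± 175 (SD, n = 3) over vegetative libraries. Flower buds reached a sum of 5006 ± 267 (SD, n = 4), and flowers one of 4880 ± 176 (SD, n = 4). The sum ran from 4659 in flower 1 to 5261 in flower bud 1, a 1.13-fold range with a CV of 4.09%. These differences between classes were smaller than the spread within each class. The rule bounds the range of every member, so similar sums follow in large part from the choice. As a share of reads, the 100 made up 0.911% ± 0.0414 (SD, n = 3), 0.934% ± 0.0478 (SD, n = 4) and 0.907% ± 0.0278 (SD, n = 4) in the same order. As a share of the summed RPKM of all transcripts, the members ranged more widely, from 0.493% in young leaves to 0.696% in flower bud 1. The spread of members within a class was similar between classes, with a median CV of 11.5% over vegetative tissues, 9.81% over flower buds and 9.06% over flowers. In the level window the vegetative tissues were the least alike, with 32.5% against 16.6% and 18.9%. The rule also bounds the CV of members within a class, so nothing is read from this contrast.

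The median log2 difference over the 100 members was 0.03 for reproductive minus vegetative libraries, 0.04 for flower buds minus vegetative, 0.01 for flowers minus vegetative and -0.07 for flowers minus flower buds. The comparisons with vegetative libraries share those 3 libraries. Over the level window the same medians were 0.11, 0.14, 0.07 and -0.10. The rule bounds these values for members. Some signs changed with the scaling. With median-of-ratios scaling, which sets each library to the median transcript, the 4 member medians became -0.07, -0.14, 0.01 and 0.12, and with quantile normalization -0.14, -0.09, -0.21 and -0.14. With summed RPKM set to one total they were 0.08, 0.13, 0.02 and -0.14, with the signs as deposited. Flowers minus flower buds was negative as deposited and under these scalings except median-of-ratios. Median-of-ratios scaling moved the median flower minus flower bud difference of all transcripts above 0 throughout from -0.20 to -0.02.

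Single members did separate the classes inside their narrow range. The vegetative and reproductive libraries did not overlap in 1 member, against 7.22% of the level window. It was Ca_TC10338, named after its values were seen, with 23.8, 21.3 and 23.3 RPKM in seedling, young leaves and meristem. Its flower buds had 31.5, 28.7, 24.4 and 26.6 RPKM and its flowers 25.99, 25.97, 24.5 and 28.6. Flower bud 3 exceeded the seedling by less than 1 RPKM, so the separation rests on a narrow margin. Flower buds and vegetative libraries did not overlap in 7 members, all higher in buds, against 17.8% of the level window. Flowers and vegetative libraries did not overlap in 10 members, 8 of them higher in flowers, against 23.5%. The 2 lower ones were Ca_TC15737, given above, and Ca_TC15852, the latter named after its values were seen. Nothing is read from these shares, since a small ratio leaves less room for classes to part.

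Flowers and flower buds did not overlap in 11 members, 4 higher and 7 lower in flowers, against 26.5% of the level window. Ca_TC07077 had the largest log2 difference upward, 0.41. Its flower buds had 21.5, 28.8, 21.8 and 21.2 RPKM and its flowers 28.9, 30.5, 32.0 and 31.5. Flower bud 2 stood at the level of flower 1, while the other buds were lower. The seedling, young leaves and meristem held 28.4, 23.3 and 31.9 RPKM, a range that reached both classes. The other 3 higher ones, named after their values were seen, were Ca_TC04287, Ca_TC13364 and Ca_TC15764.

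Ca_TC16455 had the largest difference downward between flowers and buds, with -0.36. Flower buds 1 to 4 held 50.6, 49.996, 47.9 and 43.0 RPKM, against 33.8, 39.1, 38.7 and 37.7 in flowers 1 to 4. Among vegetative tissues, young leaves at 33.4 lay just under the lowest flower, and the seedling and meristem, at 42.0 and 43.1, were near flower bud 4. The largest reproductive minus vegetative difference was that of Ca_TC15229, 0.33. It had 41.7, 43.2 and 44.2 RPKM in seedling, young leaves and meristem, between 51.5 and 62.9 in the flower buds, and 43.1, 48.9, 61.6 and 50.8 in flowers 1 to 4, so flower 1 fell within the vegetative range. The lowest, -0.29, was that of Ca_TC15678. It had 44.8, 31.6 and 41.4 RPKM in seedling, young leaves and meristem, 39.98, 33.7, 29.6 and 29.3 in flower buds 1 to 4, and 30.0, 34.3, 29.0 and 28.9 in flowers 1 to 4. Young leaves lay among the reproductive values there, and flower bud 1 near the meristem.

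The highest and lowest values of the members were spread unevenly over the libraries. Flower bud 1 was the highest library for 24 members, against 10.1% of the level window. Flower bud 3 and flower 1 were highest for 1 each, against 6.18% and 3.07%. Young leaves were the lowest library for 22, flower 1 for 15 and flower 3 for 14, against 29.7%, 14.5% and 8.05% of the level window. By class, 41 members were highest in a flower bud, 34 in a flower and 25 in a vegetative library, while 41 were lowest in a vegetative library, 41 in a flower and 18 in a flower bud. In the level window 39.97% of transcripts were highest and 55.8% lowest in a vegetative library. The flower buds were highest for 28.3% and lowest for 11.999% of it, and the flowers for 31.7% and 32.2%.

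The median deviation of a member from its own mean log2 RPKM was 0.12 in flower bud 1, 0.07 in flower bud 2, -0.01 in flower bud 3 and -0.07 in flower bud 4. The flowers had -0.07, 0.02, 0.00 and -0.04 in the order of their numbers, and seedling, young leaves and meristem had -0.04, -0.10 and 0.03. Flower bud 1 was thus the high end and young leaves the low end. The median over the level window was 0.11 in flower bud 1 and -0.25 in young leaves. Within the buds, 76 members were higher in flower bud 1 than in flower bud 4, against 60.2% of the level window, and 22 were lower at every step from bud 1 to bud 4, against 18.8%. The median log2 difference of flower bud 4 from flower bud 1 was -0.17 for members and -0.14 for the level window. For members it became -0.21 with summed RPKM set to one total and 0.02 with median-of-ratios scaling.

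**Figure D4:**
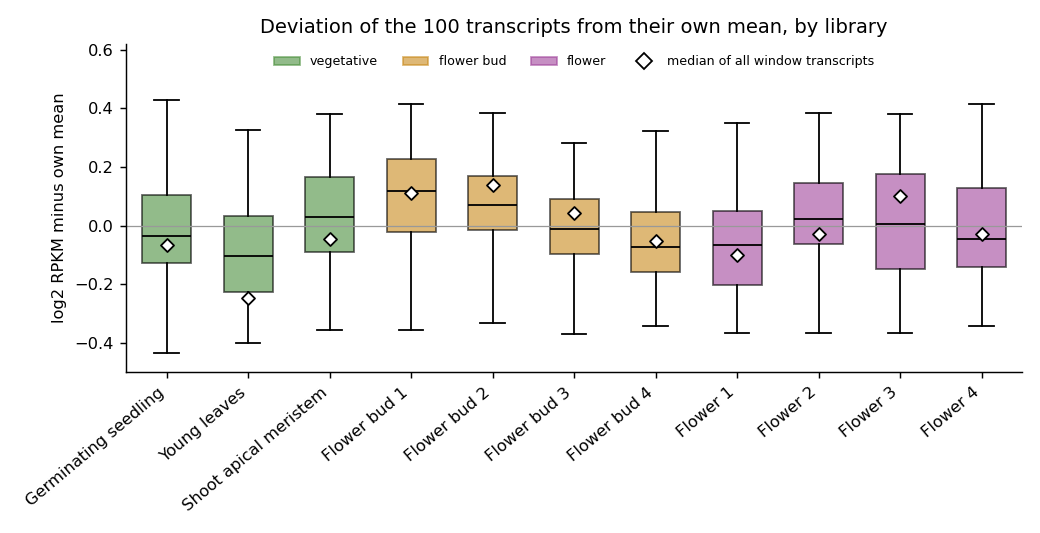
Deviation of the log2 RPKM of the 100 members from their own mean in each library; boxes span the quartiles with the median as a line, whiskers reach the lowest and highest member, and diamonds mark the median of all 2992 window transcripts. Member medians run from -0.10 in young leaves to 0.12 in flower bud 1, while the level window falls to -0.25 in young leaves.

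Pairs of members were alike to very different degrees. Over the 4950 pairs the median Pearson correlation of log2 RPKM across the 11 libraries was 0.10, with quartiles of -0.18 and 0.36. In 5 pairs it was over 0.9, and the share for pairs of level window transcripts is not given here. After the median deviation of each library was taken off, which by itself brings the median correlation near 0, the leading component held 25.3% of the remaining variance. All pairs share the same 11 libraries and their depths, and the values are a description. The pairs most and least alike are the extremes of 4950 values, so no link between their transcripts is read from them. The pair most alike was Ca_TC15517 and Ca_TC09285, with a correlation of 0.94 over 11 libraries. In the flower buds Ca_TC15517 stood at 33.7, 34.8, 29.0 and 25.8 RPKM, and Ca_TC09285 at 52.7, 51.9, 44.6 and 39.1. Both were highest in the first 2 flower buds and lowest in flower 1, at 22.8 and 34.3 RPKM. The ratio of the pair moved only 1.15-fold over all libraries, less than the 1.53-fold and 1.54-fold of each alone.

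The pair least alike was Ca_TC01773 and Ca_TC00402, with a correlation of -0.86 over 11 libraries. The buds of Ca_TC01773 held 50.3, 45.2, 44.1 and 43.0 RPKM in the order of their numbers, and its flowers 35.5, 35.96, 38.4 and 41.0. Ca_TC00402 had 33.0, 41.1, 41.6 and 46.8 in the flower buds and 48.7, 49.8, 46.2 and 45.4 in the flowers. The first was high in early buds and low in early flowers, and the second the reverse. Their ratio moved 2.11-fold over the libraries although each alone moved 1.42-fold and 1.51-fold. The median SD of the log2 ratio between 2 members was 0.24, above the median SD of 0.18 of a single member, and near the value that little correlation between members gives by arithmetic. Both were below the median SD of 0.46 of a single transcript of the level window. The SD of a transcript's log2 ratio to each level window transcript, averaged over them, had a median of 0.53 for members and 0.67 for the level window. Choosing the smallest ratios keeps these values low for members, so nothing is read from them.

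Which transcripts were most even depended on how libraries were put on one scale. RPKM divides by mapped reads, and the summed RPKM of all transcripts ran from 755808 in flower bud 1 to 953509 in young leaves. The median transcript above 0 in all libraries stood at a factor of 0.7601 in young leaves and 1.19 in the shoot apical meristem, relative to its geometric mean over libraries, a 1.57-fold range. The members stood at 0.931 and 1.02 in those libraries and their factors spanned a 1.17-fold range. Choosing the smallest ratios keeps this range narrow for members, so nothing is read from it. Against the median transcript, members were 1.23 times as high in young leaves and 0.856 times as high in the meristem. On the log2 scale the median transcript stood at -0.40 in young leaves and 0.25 in the meristem. The level window had median deviations of -0.25 and -0.05 there, and the members -0.10 and 0.03. In the meristem the level window was thus near the members, and in young leaves it lay between them and the median transcript. In other libraries the 2 sets of factors were closer, as in the seedling with 0.964 and 0.975 and flower 2 with 1.02 and 1.01.

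**Figure D5:**
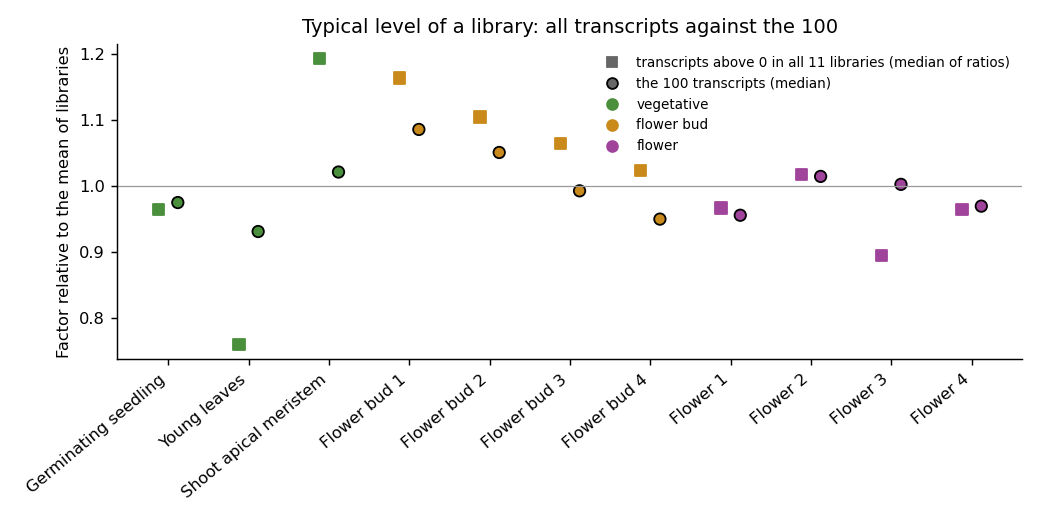
Typical level in each library relative to the geometric mean over libraries, for the median transcript above 0 in all 11 libraries (squares) and for the median of the 100 members (circles). The squares run from 0.7601 in young leaves to 1.19 in the shoot apical meristem and the circles from 0.931 to 1.09. Choosing the members by a small ratio keeps the range of the circles narrow.

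With the rule applied after median-of-ratios scaling, 28 of the 100 were chosen again, with a limit ratio of 1.51. After quantile normalization 38 were, with 1.53, and after setting each library's summed RPKM to one fixed total 48 were, with 1.64. The limit as deposited was 1.55, so the list was less even with summed RPKM set to one total, and most of each list were other transcripts. Under median-of-ratios scaling the members had a median ratio of 1.66 and 92 stayed under 2; young leaves became the highest library for 54 and the lowest for 0, and the meristem the lowest for 41. Under summed-RPKM scaling young leaves were the lowest for 56. The same library was thus high or low for most members according to the scaling.

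Chosen under all 3 scalings were 6 members: Ca_TC10023, Ca_TC17171, Ca_TC17948, Ca_TC02988, Ca_TC14532 and Ca_TC09579. The first 4, whose values are given above, were also chosen when each library was left out in turn and by 4 other measures of spread. Leaving out a library cannot raise a ratio. The ratios of these 4 as deposited, 1.23 to 1.32, were below every limit then found, 1.42 to 1.55. Being chosen again there thus follows by arithmetic. The other measures use the same RPKM values and are no separate check. With median-of-ratios scaling the ratios of these 4 were 1.48, 1.46, 1.46 and 1.399 in that order, and with quantile normalization 1.35, 1.33, 1.36 and 1.4998. By contrast Ca_TC17210, rank 4 as deposited, had 1.81 with median-of-ratios scaling and Ca_TC10168, rank 10, 1.84. With summed RPKM set to one total the order was the other way, with 1.3025 and 1.35 for this pair and 1.42, 1.49, 1.44 and 1.51 for the 4. Ca_TC14532 and Ca_TC09579 were named after their values were seen. Ca_TC14532 had 26.9 to 38.7 RPKM, with flower 3 lowest and flower 2 highest, and Ca_TC09579 had 23.8 to 34.4, with flower 1 lowest and flower bud 1 highest.

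The same rule was also applied to some libraries and the chosen transcripts read in libraries the choice had not used. With 1 library left out, 100 transcripts were chosen on the other 10, and the left-out RPKM was set against their geometric mean over those 10. All 100 were within 2-fold of it in 8 of the 11 left-out libraries, where 90.1% to 97.3% of the transcripts in the same window were. In the germinating seedling 98 of 100 were, against 90.6%, and in the shoot apical meristem 94, against 82.4%. Young leaves stood apart, with 80 of 100 against 67.1%. The median deviation, without its sign, of the chosen was smaller than that of the window in 11 of 11 left-out libraries. For example, it was 0.13 against 0.32 on the log2 scale in flower 2 and 0.51 against 0.69 in young leaves. With its sign kept, the median in young leaves was -0.47 for the chosen and -0.41 for the window. Both sets were thus mostly lower there, and by this median the chosen were no nearer than the window. The lists share most members, so the 11 values are not independent, and no test was made. The shares within 2-fold were lowest in young leaves and the meristem, for the chosen transcripts and for the window alike.

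The choice was also made within classes, with a stricter reading over several libraries at once. Of 100 transcripts chosen on the 3 vegetative libraries, with ratios up to 1.13, 73 stayed within 2-fold of their vegetative mean in all 8 reproductive libraries, against 55.5% of the window. Of 100 chosen on the 8 reproductive libraries, with ratios up to 1.28, 68 stayed within 2-fold in all 3 vegetative libraries, against 48.5%. These lists shared 13 and 16 transcripts with the 100 members. The largest departure was Ca_TC09073, even over vegetative tissues and up to 3.34 away on the log2 scale in a reproductive library, a transcript named after its value was seen.

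Transcripts this even were a smaller share in the other ranges of lowest RPKM compared here. The comparison depends on where the ranges are cut: in a window of 10 to under 100 RPKM the 100th ratio was 1.51. A ratio no larger than the members' limit of 1.55 was reached by 93 of 7540 transcripts (1.23%) with a lowest RPKM of 5 to under 20, and by 9 of 10616 (0.0848%) with one of 1 to under 5. The median CV from counting alone was 3.60% and 9.90% in those, against 2.02% in the level window, and its part in the shares was not tested. Above the window, with a lowest RPKM of at least 200, only 1 of 174 transcripts (0.575%) reached it, where the median CV from counting was 0.877%. The median ratio there was 3.05, above the 2.79 of the level window.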

How the data were processed

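Per the labels, total RNA from 11 chickpea tissue samples was made into Illumina mRNA libraries. Per the series text, filtering by the authors used NGS QC Toolkit, mapping was to 34760 transcripts, and the values they deposited are RPKM. How shared reads were assigned, and by which aligner, is not stated there, and near-identical transcripts are uncertain. The authors' DESeq results are not used here. Blank rows (128 per file) were left out.

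Whole reads, transcript lengths of at least 100 bases and library totals were recovered from the RPKM values, since each is reads divided by length and total. Reads came out whole for all 34703 transcripts above 0, with a tolerance of 3e-06 reads plus a share of 4e-09. Totals ran from 14536530 to 35643139 reads. On 12000 transcripts made with known values, 11 of 11 totals and 99.91% of reads were returned exactly. Intervals from counting cover counting error only.

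Samples were grouped by tissue label. Members were chosen with the rule stated in the report, and the members and lists were chosen with earlier results of these data known. Group differences are means of log2 RPKM with no pseudocount. No test was made, because the rule used all 11 libraries. Named transcripts were the 10 smallest ratios, ranks 99 to 102, the extremes of mean, length, variance over counting variance and group difference, and the pairs most and least alike. Alternatives changed scaling, window, measure of spread and libraries. Python 3.11.15, numpy 2.4.6 and pandas 2.3.3 were used.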

Additional observations from a re-analysis of the deposited data

Results flagged for a closer look

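In groups of 4 libraries, a value was marked where its gap to the nearest other value, divided by the range of the group, exceeded 0.829; chance marks about 1 in 20 groups. Of 56 groups examined, 2 were marked. Ca_TC09562 had 53.2 RPKM in flower bud 3 and 58.6 to 58.9 in the other flower buds. Ca_TC07077 had 28.8 RPKM in flower bud 2 and 21.2 to 21.8 in the other flower buds; flower bud 2 was also the shallowest library, and the part of depth was not tested.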

How the results depend on the processing

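Of the 100 members, 28 were chosen again with median-of-ratios scaling, 38 with quantile normalization, 48 with summed RPKM set equal, 66 with a lowest RPKM of 10 to under 100, 17 with 50 to under 500, 13 on vegetative and 16 on reproductive libraries alone. Settings chosen after seeing the data gave 49 (level window median set equal) and 62 (SD of ratios to the window). Other measures of spread kept 78 or 79, and no upper limit kept 99. Leaving out 1 library kept 37 to 97, with 37 without young leaves and 53 without the shoot apical meristem. The ratio of the 100th member, 1.55, became 1.51 with 10 to under 100 RPKM and 1.84 with 50 to under 500. It became 1.13 on vegetative and 1.28 on reproductive libraries, and 1.42 to 1.55 with 1 library left out. With fewer libraries, ratios are smaller by construction. The median log2 difference became -0.14 for flower bud minus vegetative and 0.115 for flower minus flower bud with median-of-ratios scaling, and -0.213 for flower minus vegetative with quantile normalization; the cause was not tested. With 1 library left out these medians ran from 0.02 to 0.08, -0.08 to -0.02 and -0.03 to 0.03, and reproductive minus vegetative from -0.01 to 0.05. The median member ratio was 1.46 to 1.47 with 1 library left out. Members whose flower buds and flowers did not overlap numbered 19 with median-of-ratios scaling and 11 to 23 with 1 library left out, 23 without flower bud 4 and 20 without flower 3. For vegetative against reproductive libraries 2, 2 and 0 were found under median-of-ratios, quantile and summed-RPKM scaling, and 1 to 8 with 1 library left out: 7 without the seedling, 8 without young leaves, 5 without the meristem, 3 without flower bud 3, and 2 without flower bud 2 or flower 1, 3 or 4. Fewer libraries overlap less by construction. As deposited the counts were 11 and 1, against 26.5% and 7.22% of the level window. The level window's shares under the other settings are not given here, so nothing is read from these changes in count. Within 2-fold shares with 50 or 200 transcripts chosen moved by less than 10 points. No paired analysis was possible because the numbers of flower buds and flowers name stages and no test was made. The lowest library of a member held at least 300 reads, and the part of depth in the choice was not tested.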
